A study of Mus musculus with 3 samples.

Results

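The genes described here encode the machinery of 2 forms of lytic cell death, pyroptosis and necroptosis, in dendritic cells (DCs) cultured from mouse bone marrow. They were fixed by name as Nlrp3, Aim2, Pycard, Casp1, Casp4, Gsdmd, Casp8, Ripk1, Ripk3 and Mlkl, and every probe set that the array's annotation assigned to exactly 1 of them was taken. Of these 10 genes, 9 had such a probe set, with 11 probe sets of the 38546 in the table, and 9 of the 17886 genes measured. Ripk1 had no such probe set and was not analysed here. Pycard had 3 probe sets and each of the other 8 genes had 1.

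Inflammasomes are cytosolic complexes in which a sensor such as NLRP3 or AIM2 binds the adaptor ASC, the product of Pycard, and so activates caspase-1. Caspase-1 matures interleukin-1β and interleukin-18 and cleaves gasdermin D, whose amino-terminal part forms pores in the plasma membrane; the mouse caspase-11, encoded by Casp4, binds LPS in the cytosol and cleaves gasdermin D as well. In necroptosis the kinases RIPK1 and RIPK3 act on the pseudokinase MLKL, which permeabilizes the membrane, and caspase-8 holds this route in check. In DCs and macrophages, Nlrp3 and the interleukin-1β gene are known to need a priming signal, such as LPS, before the inflammasome can act.

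The cells came from wild-type bone marrow kept in culture with the cytokine GM-CSF (granulocyte-macrophage colony-stimulating factor) over 5 days, and a cell sorter then separated them by surface PDL2, which binds PD-1. One group was PDL2-negative and untreated, another was PDL2-negative and given lipopolysaccharide (LPS, a Toll-like receptor 4 ligand) at 100 ng/ml, and the other was PDL2-positive and untreated. The duration of LPS, the mouse strain and the age of the animals are not given in the sources used here. Each group had 1 array, so no difference has a replicate check and no test between groups was possible. The 3 arrays allow 3 comparisons, and the first and the second share the untreated PDL2-negative array. The third, PDL2-positive against LPS-treated PDL2-negative cells, follows from the others for each gene that was above the floor throughout.

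Values are log2 signals, quantile-normalized over the arrays. The floor, below which a signal was not told from background, was the median of all normalized values, 5.58, and signals under it were set to it. A comparison covers the genes above the floor on at least 1 of its 2 arrays. A gene is called higher or lower where it differed by at least 2-fold, which is 1 on the log2 scale. Where a gene was at the floor on 1 array, its fold is a lower bound and is given as "at least". The only measure of error is technical: the robust SD of a probe set's log2 difference, from genes with several probe sets, was 0.29 over 4230 genes for LPS, 0.21 over 4251 genes for PDL2 and 0.31 over 4142 genes for the third comparison. It does not cover variation between cultures or mice.

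Pdcd1lg2, which encodes PDL2, had a signal of 11.73 on the PDL2-positive array, against 8.40 on the untreated PDL2-negative array and 9.44 on the LPS array. All 7 DC markers (Itgax, H2-Ab1, Cd74, Flt3, Zbtb46, Ccr7 and Fscn1) were above the floor on all 3 arrays. All 7 macrophage markers with a probe set were also above the floor on all 3 arrays, and each was lower by at least 2-fold in PDL2-positive cells than in their untreated PDL2-negative counterparts, from 10.2-fold for Csf1r to 44.6-fold for C1qc. In bulk samples such as these, fewer cells of a type and less RNA per cell cannot be told apart.

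The promoters of the 4 genes with the largest rise after LPS, Casp4, Mlkl, Nlrp3 and Casp1, are shown because these genes were higher together on the LPS array. Each run holds 250 bases before the RefSeq transcription start and 50 bases from the start on, 5′ to 3′ on the gene's strand, with build GRCm38.p6, and capitals mark matches to an NF-kB motif (GGG, any 2 bases, then TTTCC) on either strand. Casp4 lies at chr9:5308599-5308898 (+ strand), Mlkl at chr8:111338156-111338455 (- strand), Nlrp3 at chr11:59541319-59541618 (+ strand) and Casp1 at chr9:5298267-5298566 (+ strand).
Casp4: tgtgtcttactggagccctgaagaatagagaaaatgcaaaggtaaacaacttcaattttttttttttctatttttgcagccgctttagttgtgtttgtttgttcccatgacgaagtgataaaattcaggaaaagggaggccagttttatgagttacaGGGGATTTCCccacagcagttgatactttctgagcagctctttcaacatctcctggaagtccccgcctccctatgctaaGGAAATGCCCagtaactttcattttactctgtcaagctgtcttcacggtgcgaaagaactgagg
Mlkl: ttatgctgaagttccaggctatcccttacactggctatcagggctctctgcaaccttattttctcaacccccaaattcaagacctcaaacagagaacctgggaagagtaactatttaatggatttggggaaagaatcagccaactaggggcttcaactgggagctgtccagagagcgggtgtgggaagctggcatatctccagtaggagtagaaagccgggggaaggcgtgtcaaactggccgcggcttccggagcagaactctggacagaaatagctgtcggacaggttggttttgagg
Nlrp3: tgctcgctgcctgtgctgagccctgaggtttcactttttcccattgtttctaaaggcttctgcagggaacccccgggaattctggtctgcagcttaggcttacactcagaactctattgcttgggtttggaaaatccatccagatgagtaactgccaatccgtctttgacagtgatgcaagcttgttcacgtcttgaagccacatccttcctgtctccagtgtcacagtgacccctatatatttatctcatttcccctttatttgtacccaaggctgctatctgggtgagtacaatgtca
Casp1: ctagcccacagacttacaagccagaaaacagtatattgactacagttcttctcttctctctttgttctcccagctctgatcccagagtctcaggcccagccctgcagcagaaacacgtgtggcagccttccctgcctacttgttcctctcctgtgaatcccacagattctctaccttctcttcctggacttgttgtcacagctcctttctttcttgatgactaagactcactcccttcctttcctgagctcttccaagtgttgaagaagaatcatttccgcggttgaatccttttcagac

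RefSeq promoters were found for 9 of the 10 genes, all but Gsdmd, with 12 windows in all, since Casp4, Nlrp3 and Ripk1 each have a second start. The runs above are the first window of Casp4 and the second of Nlrp3. Casp4 was the only 1 of these 9 genes with a match to the NF-kB motif. Its window held 2 matches, GGGGATTTCC on the gene's strand at position -93 and GGAAATGCCC, a match on the opposite strand, at -14, counting the start as 0. Of 32851 promoter windows of the same length, 1.63% held at least 1 match, and 1.89% of the 27025 genes with a window had one. The core of the interferon-stimulated response element (GAAA, any 2 bases, GAAA) and the gamma-activated site (TTC, any 3 bases, GAA), searched on both strands, were present in 3.44% and 8.30% of windows. By gene, the shares were 3.99% and 9.55%. Among these genes both were found only in the second window of Ripk1, where they overlap at 1 place, and Ripk1 has no value here. A match to these letters is not evidence of binding, and the lack of one speaks only of these windows.

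The first comparison asked how LPS altered these genes in PDL2-negative DCs. Casp4, Mlkl, Nlrp3 and Casp1 were higher after LPS, with 13.5-fold for Casp4, 7.80-fold for Mlkl, 2.82-fold for Casp1 and a log2 difference of 1.58 for Nlrp3, and Pycard was 2.04-fold lower. Aim2, Casp8 and Gsdmd were above their untreated signals by less than 2-fold, and Ripk3 was below its own by less than 2-fold. Thus 4 of 9 genes were called higher, where 9.17% of the 11000 genes above the floor were, and 1 of 9 was called lower, where 13.8% were. The median log2 difference over the 9 genes was 0.97, against 0.02 over all genes.

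The second comparison set untreated PDL2-positive against untreated PDL2-negative DCs. Mlkl was at least 7.87-fold lower in PDL2-positive cells, Ripk3 was 5.07-fold, Nlrp3 3.70-fold and Pycard 2.11-fold lower, and none of the 9 genes was higher by 2-fold. The count of 4 of 9 called lower stands beside 13.0% of 10926 genes, and that of 0 of 9 called higher beside 10.1%. The median log2 difference was -0.95, against 0.01 over all genes. With the floor at the 75th percentile the calls of Mlkl and Ripk3 ended, and 2 of 8 genes were lower, where 14.0% of genes were. That floor lies above the PDL2-positive signals of Mlkl and Ripk3, so their differences at it are bounds. Casp8, Casp1 and Casp4 differed by less than 2-fold, and Gsdmd and Aim2 by less than the technical SD.

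In the third comparison, 7 of 9 genes were lower in PDL2-positive cells than after LPS and 0 were higher, where 12.6% and 15.6% of 11042 genes were. The median was -1.94, against -0.05 over all genes. Mlkl differed by at least 61.4-fold, Nlrp3 by 11.1-fold and Casp4 by 7.74-fold. All 9 signals were lower on the PDL2-positive array than on the LPS array, although for Pycard and Gsdmd by less than 2-fold. The count of 7 includes Aim2, which lies at the 2-fold line, and Ripk3. The call of Ripk3 ended with the floor at the 75th percentile (-0.49 or lower, a bound).

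**Figure D1:**
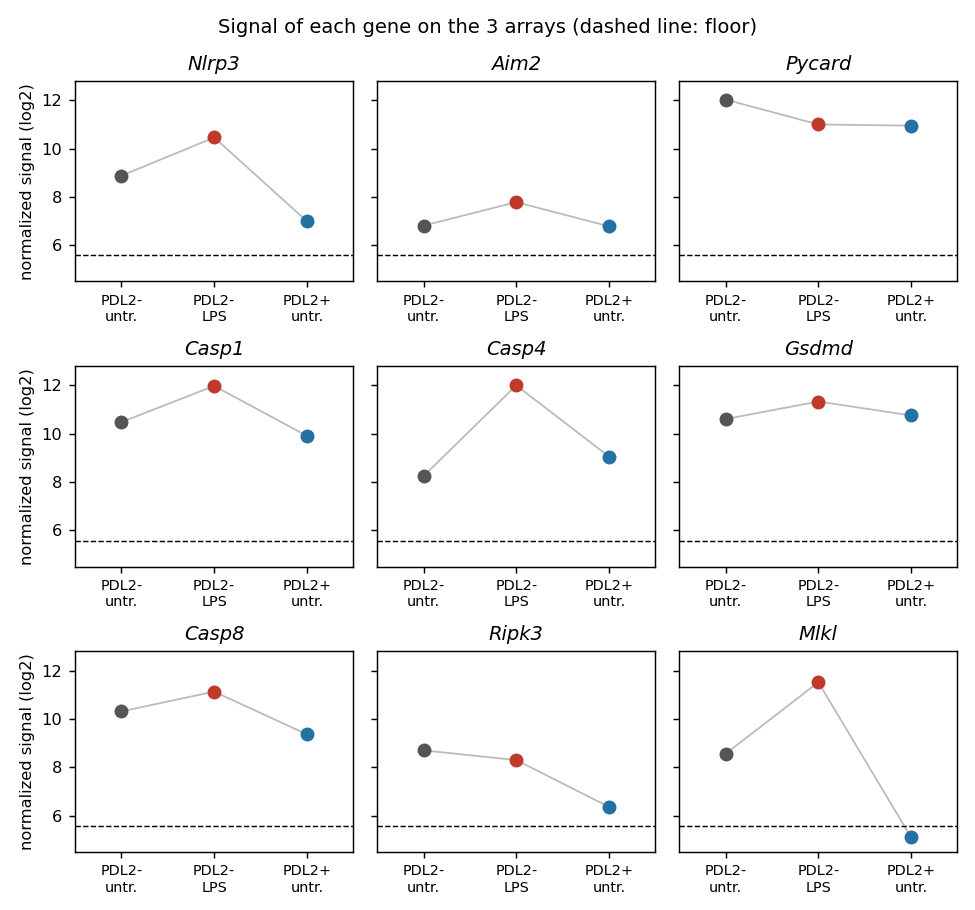
Normalized log2 signal (vertical axis) of each of the 9 genes on the 3 arrays (horizontal axis), with 1 point per array, joined by a line for reading, and the floor of 5.58 dashed. The LPS array is highest for 7 genes, and Mlkl in PDL2-positive cells is the only point under the floor.

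Of the sensors, Nlrp3, which responds to membrane damage and potassium efflux, had signals of 8.88, 10.46 and 6.99 on the untreated PDL2-negative, LPS and PDL2-positive arrays. It was therefore highest with LPS and lowest in PDL2-positive cells, and the steps of 1.58 and -1.89 from the untreated PDL2-negative signal both exceeded the technical SD. Of 11000 genes, 5.29% had a higher difference than Nlrp3 after LPS, and of 10926 genes 5.95% had a lower one in PDL2-positive cells. The closest centred profiles to it over the 3 arrays, among 9850 genes above the floor on all of them, were those of Tlr6 and Septin11, at Euclidean distances of 0.05 and 0.08 on the log2 scale. A profile over 3 arrays holds only 2 independent differences, so closeness is a description.

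Aim2, the cytosolic DNA sensor, had signals of 6.81, 7.78 and 6.78 on the untreated PDL2-negative, LPS and PDL2-positive arrays. Only the LPS array stood apart, by 0.97 on the log2 scale, which is 1.96-fold and just short of the 2-fold line. Against PDL2-positive cells the same LPS signal was just past it. That call ended with the deposited values (-0.84) and with median centring (-0.87). With the floor at the 75th percentile of all values, Aim2 was below the floor on all 3 arrays.

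Pycard encodes ASC, the adaptor shared by both sensors, and its brightest probe set had signals of 12.03, 11.00 and 10.95. It was highest in untreated PDL2-negative cells, and the LPS and PDL2-positive signals differed by 0.05, less than the technical SD. The log2 difference was -1.03 after LPS and -1.08 in PDL2-positive cells, both close to the 2-fold line. After LPS the call ended with the deposited values (-0.96) and with median centring (-0.94). The other 2 probe sets of Pycard were below the floor on all 3 arrays, with signals between 4.34 and 5.24, so that they give no second reading.

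Casp1, the protease that inflammasomes activate, had signals of 10.49, 11.98 and 9.91. It was 2.82-fold higher after LPS, and its log2 difference in PDL2-positive cells was -0.57, under 2-fold. Casp4, which encodes the caspase that binds cytosolic LPS, had signals of 8.25, 12.01 and 9.05. Its difference of 3.76 after LPS was the 115th highest of 11000 genes, and its log2 difference in PDL2-positive cells was 0.80 (1.75-fold). Casp1 and Casp4 are neighbours on chromosome 9 in RefSeq, with no gene between them, and Casp12 follows Casp4. Casp12 was just above the floor on the LPS array, at 5.81, and at the floor on the other arrays.

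Gsdmd, the pore-forming substrate of both caspases, varied least of the 9 genes, with signals of 10.61, 11.34 and 10.76. The LPS array was higher by 0.72 on the log2 scale (1.65-fold), and the untreated arrays differed by 0.15. The gene for the pore-forming protein was thus within 2-fold on all 3 arrays, while that for the protease that cleaves it, Casp4, spanned 13.5-fold. The closest profiles were those of Cfap298 and Chd1 for Gsdmd and those of Jag1 and Atp10a for Casp4, at distances of at most 0.08.

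Casp8, which starts death receptor apoptosis and cleaves the RIP kinases, had signals of 10.31, 11.13 and 9.36. Its log2 differences were 0.82 after LPS and -0.95 in PDL2-positive cells, neither of which reached 2-fold. Between LPS and PDL2-positive cells it spanned 3.41-fold. Its closest profiles were those of Slc6a8 and Cd44, at distances of 0.04.

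Ripk3, the kinase that phosphorylates MLKL, had signals of 8.70, 8.29 and 6.36. The log2 difference after LPS was -0.40 (1.32-fold), and the PDL2-positive array alone was lower by over 2-fold, at -2.34. Mlkl, the executioner of necroptosis, had signals of 8.55, 11.52 and 5.10, the last below the floor. Its log2 differences were 2.96 after LPS, the 208th highest of 11000 genes, and -2.98 or lower in PDL2-positive cells. With the floor at the 75th percentile both calls in PDL2-positive cells ended, at -0.89 or lower for Ripk3 and -0.75 or lower for Mlkl. These are bounds, since that floor lies above both PDL2-positive signals. Both genes were lower in PDL2-positive cells, and after LPS Mlkl was past 2-fold and Ripk3 was not; the difference between them was not tested.

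**Figure D2:**
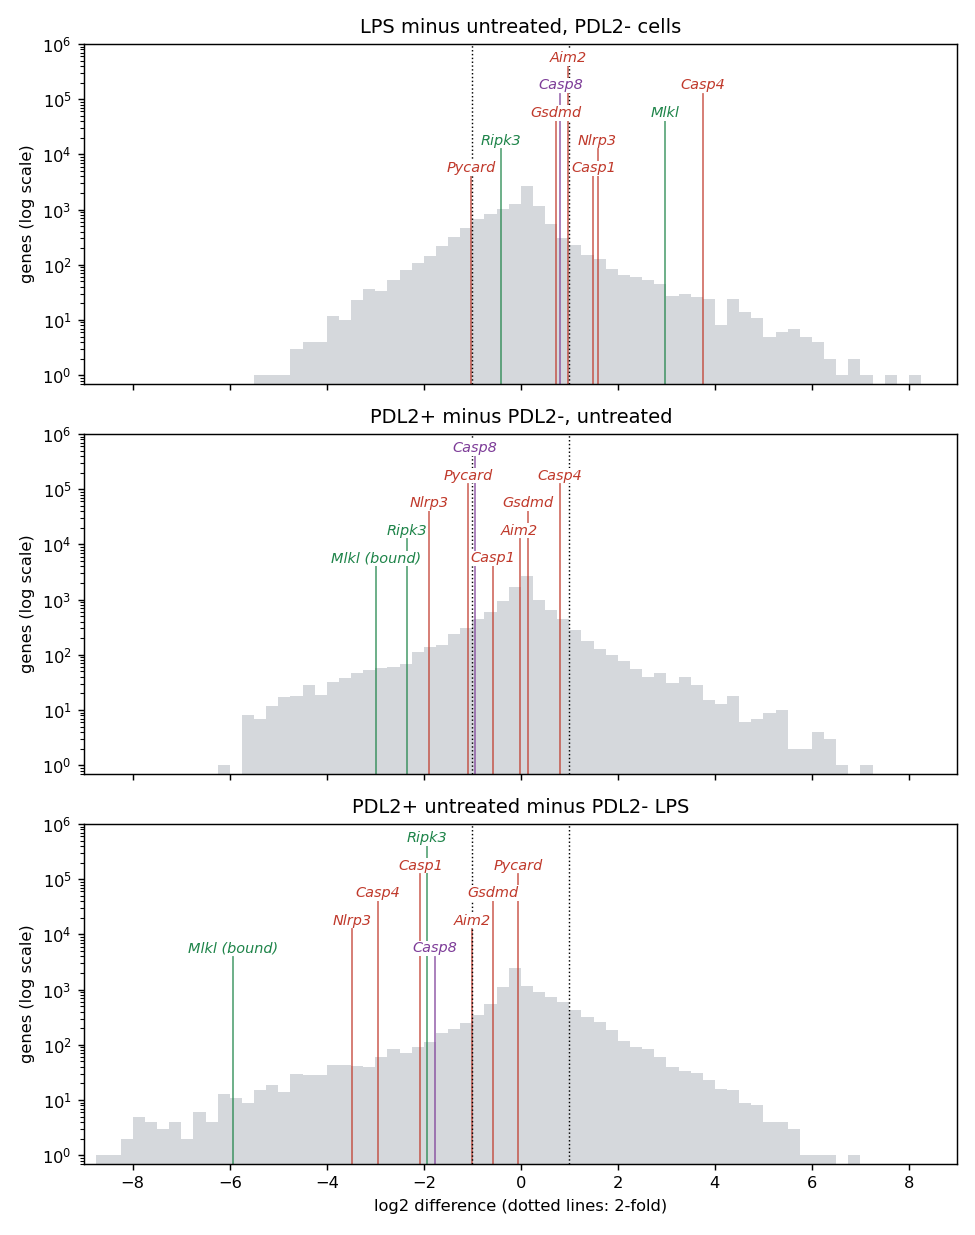
Histograms of the log2 difference (horizontal axis) over all genes above the floor, with the number of genes on a log axis, in the 3 comparisons. Coloured lines mark the 9 genes (red for the inflammasome route, purple for Casp8, green for Ripk3 and Mlkl), dotted lines mark 2-fold, and "bound" marks a gene at the floor on 1 array; Casp4 and Mlkl lie farthest right after LPS, and Mlkl farthest left in the other panels.

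The order of the arrays was LPS, untreated PDL2-negative, PDL2-positive from high to low for 5 genes (Nlrp3, Aim2, Casp1, Casp8 and Mlkl), an order that 17.0% of the 11230 genes above the floor on any array had. It was LPS, PDL2-positive, untreated PDL2-negative for Casp4 and Gsdmd (19.8% of all genes), and untreated PDL2-negative, LPS, PDL2-positive for Pycard and Ripk3 (12.7%). The lower neighbours in this order lay within the technical SD for Aim2, Pycard and Gsdmd, so their order is not settled. Signals of different genes come from different probes and are not compared.

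Cell type markers moved alongside these differences. In PDL2-positive cells the 7 macrophage markers had a median log2 difference of -4.57, and their summed linear signal was 50214 on the untreated PDL2-negative array, 38455 on the LPS array and 2913 on the PDL2-positive array. Of 4 monocyte markers with a probe set, 3 were lower in PDL2-positive cells, where 13.0% of all genes were. Itgam (24.3-fold) and Vcan (10.6-fold) were among the 3, and the monocyte sums were 20137, 15731 and 15203. A sum follows its brightest probes. S100a4, the monocyte marker that stayed within 2-fold, made up most of these sums, with log2 signals of 14.01, 13.62 and 13.85. Of 9 neutrophil and granulocyte precursor markers 7 were lower after LPS, where 13.8% of all genes were. Their sums were 18825, 7923 and 18814, and Prtn3 was at the floor after LPS. Of 5 lymphocyte and NK cell markers with a probe set, Cd3g, Cd79a, Ncr1 and Nkg7 were at the floor on all 3 arrays, as were both erythroid markers with a probe set, Hba-a1 and Alas2. The part of the macrophage, monocyte and granulocyte markers in the differences of Nlrp3, Pycard, Ripk3 and Mlkl was not tested. Among the DC markers, Ccr7 (76.7-fold), Fscn1 (36.4-fold), Zbtb46 (5.15-fold) and Flt3 (3.71-fold) were higher and Itgax (3.18-fold) was lower in PDL2-positive cells. H2-Ab1 and Cd74 were within 2-fold. After LPS, Ccr7 (24.8-fold) and Fscn1 (14.4-fold) were higher as well, and the other 5 DC markers were within 2-fold.

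Of 15 other sensors and regulators of inflammasomes listed, 11 had a probe set, and 7 were above the floor. Of these, Mefv was called higher on the LPS array and Txnip and Nek7 lower, where 9.17% and 13.8% of all genes were. On the log2 scale the list median was 0.02, and the median of all genes was 0.02 too. Mefv, which encodes the sensor pyrin, had signals of 8.40 untreated and 11.68 after LPS (9.70-fold). Txnip, whose product binds NLRP3 and thioredoxin, was 2.37-fold lower, and Nek7, an NLRP3 partner, was 2.03-fold lower, although the other probe set of Txnip was within 2-fold, and the 3 probe sets of Nek7 ran from -1.33 to -0.63 on the log2 scale. In PDL2-positive cells 2 of 6 were lower and 0 higher (median -0.58), namely Txnip (7.13-fold) and Naip6, a gene of the bacterial flagellin sensors (2.24-fold). Over all genes 13.0% were lower and 10.1% higher in that comparison. Mefv differed there by -0.61. The Naip genes are close paralogs, so their probe sets may share signal.

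Inflammasome substrates and products had 8 genes above the floor, and LPS-treated cells had higher signals for 5 and a lower signal for 1, with a median of 2.16. The shares over all genes were 9.17% higher and 13.8% lower. Il1a, which encodes interleukin-1α, had the largest difference, with signals of 5.86 untreated and 11.43 after LPS (47.6-fold). Its untreated signal was close to the floor. With the floor at the 75th percentile its log2 difference was at least 3.63, a lower bound because that floor lies above its untreated signal. Its order against the 4.08 of Il1b is therefore not settled at that floor. Il1b, the main product of caspase-1, had signals of 10.08, 14.16 and 8.38 on the untreated PDL2-negative, LPS and PDL2-positive arrays, 17.0-fold higher after LPS and 3.23-fold lower in PDL2-positive cells. Il18, the other caspase-1 cytokine, was 2.30-fold higher after LPS and 3.49-fold lower in PDL2-positive cells. The list also holds 2 genes that restrain these cytokines: Il1rn was 13.1-fold and Il18bp 8.69-fold higher after LPS. In PDL2-positive cells Il1rn was 8.06-fold lower and Il18bp 2.06-fold higher, and the latter was not called with the deposited values. Gsdme, a gasdermin cut by caspase-3, was at least 3.24-fold lower on the LPS array and on the PDL2-positive array, at the floor in each. In PDL2-positive cells 4 of the 8 were lower and 1 higher (median -1.17), where 13.0% and 10.1% of all genes were. Ninj1, which ruptures the membrane after pore formation, differed by less than 2-fold in both comparisons (0.28 and -0.18).

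All 8 interferon-inducible genes with a probe set were higher after LPS (median 2.88), where 9.17% of all genes were. They include the guanylate-binding proteins Gbp6 (at least 38.6-fold) and Gbp2 (7.68-fold), the DNA sensor gene Ifi204 (13.8-fold) and Zbp1, which recruits RIPK3 to Z-form nucleic acid (10.3-fold). With the floor at the 75th percentile, which lies above their untreated signals, the log2 differences were at least 3.05 for Gbp6 and at least 2.64 for Ifi204. In PDL2-positive cells 3 of 7 were lower and 1 higher (median -0.61), where 13.0% and 10.1% of all genes were. Gbp7 was at least 16.7-fold lower and Zbp1 3.38-fold lower, although the other probe set of Zbp1 differed by -0.55. The transcription factor gene Irf1 was 2.74-fold higher.

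The complex that forms at TNF receptor 1 decides between survival signalling and the RIP kinases. LPS-treated cells had higher signals for 10 of its 22 measured genes and lower signals for 0 (median 0.81), where 9.17% and 13.8% of all genes were. The largest differences were those of Tnfaip3, a ubiquitin editor (19.2-fold), Cflar, the caspase-8 inhibitor cFLIP (8.42-fold), Tnip1, a partner of Tnfaip3 (5.70-fold), and Traf2 (5.39-fold). The probe sets of Cflar ran from 0.52 to 4.90 on the log2 scale. In PDL2-positive cells 5 were higher and 2 lower (median 0.52), where 10.1% and 13.0% of all genes were. There the ubiquitin ligase genes Birc2 and Birc3 were 14.6-fold and 3.10-fold higher and Cflar 2.98-fold higher, while the receptor gene Tnfrsf1a was 3.84-fold lower. In that comparison the 5 probe sets of Cflar ran from 0.66 to 3.13 and the 2 of Birc3 from 1.01 to 1.63. The adaptor genes Tradd and Fadd differed by less than 0.3 in both comparisons.

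Receptor, adaptor and ligand genes that feed the RIP kinases had 6 members above the floor. Of these, 4 were higher and 1 lower after LPS (median 1.58), where 9.17% and 13.8% of all genes were. In PDL2-positive cells 1 was higher and 3 lower (median -0.82), where 10.1% and 13.0% of all genes were. Tnf was 20.7-fold higher after LPS and 3.24-fold lower in PDL2-positive cells, and Tlr3 had a log2 difference of 3.33 after LPS and was at least 2.39-fold lower. Fas, a death receptor gene, was higher in both, by 4.12-fold and 8.33-fold, and Tlr4 was lower in both, by 4.18-fold and 15.0-fold. The 3 probe sets of Tlr4 ran from -3.90 to -1.53 in PDL2-positive cells, where the -1.53 is a bound from a probe set at the floor. Of 7 genes for apoptotic caspases and their inputs, 0 were higher and 2 lower after LPS (median 0.18), namely Casp9 (4.03-fold) and Casp6 (2.66-fold). Bid alone was lower in PDL2-positive cells (3.35-fold, list median -0.88). Given the same shares over all genes, counts this small among 7 genes are not read as a trait of the list. Other probe sets of Casp9 and Casp6 did not reach 2-fold, and those of Casp9 differed in direction.

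**Figure D3:**
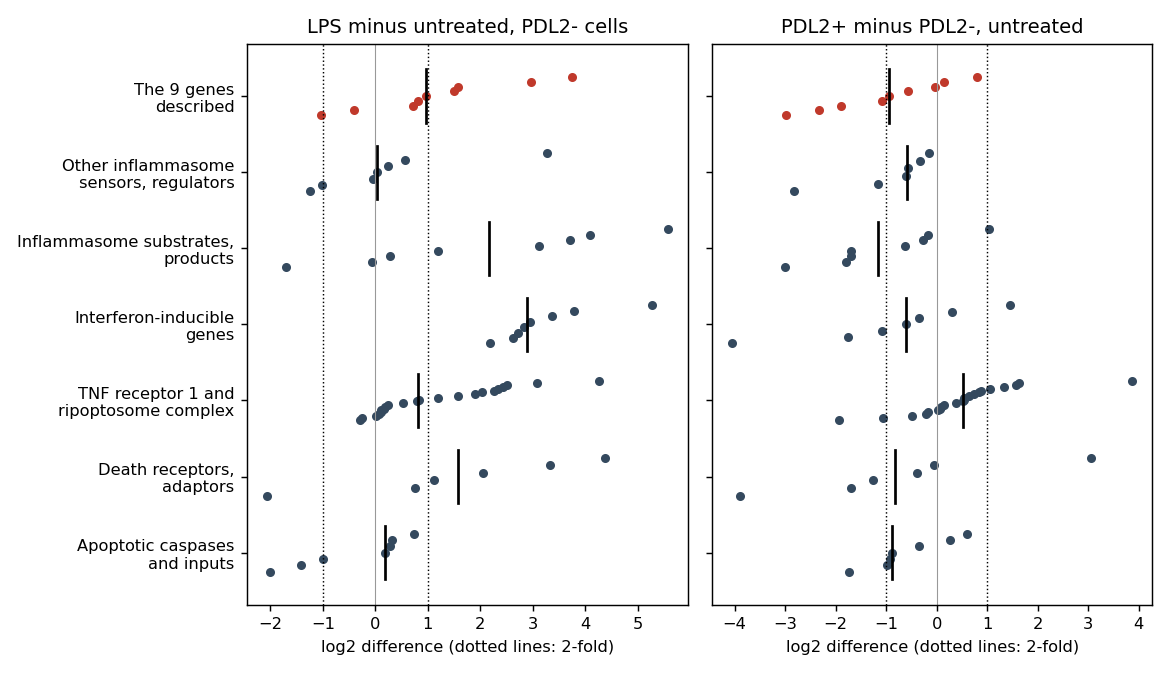
Log2 difference (horizontal axis) of each gene above the floor, 1 point per gene, for the 9 genes described (red) and the 6 lists of pathway genes (dark), with a bar at each median and dotted lines at 2-fold. After LPS the interferon-inducible genes all lie past 2-fold, and in PDL2-positive cells the medians lie below 0 except that of the TNF receptor 1 complex.

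**Figure D4:**
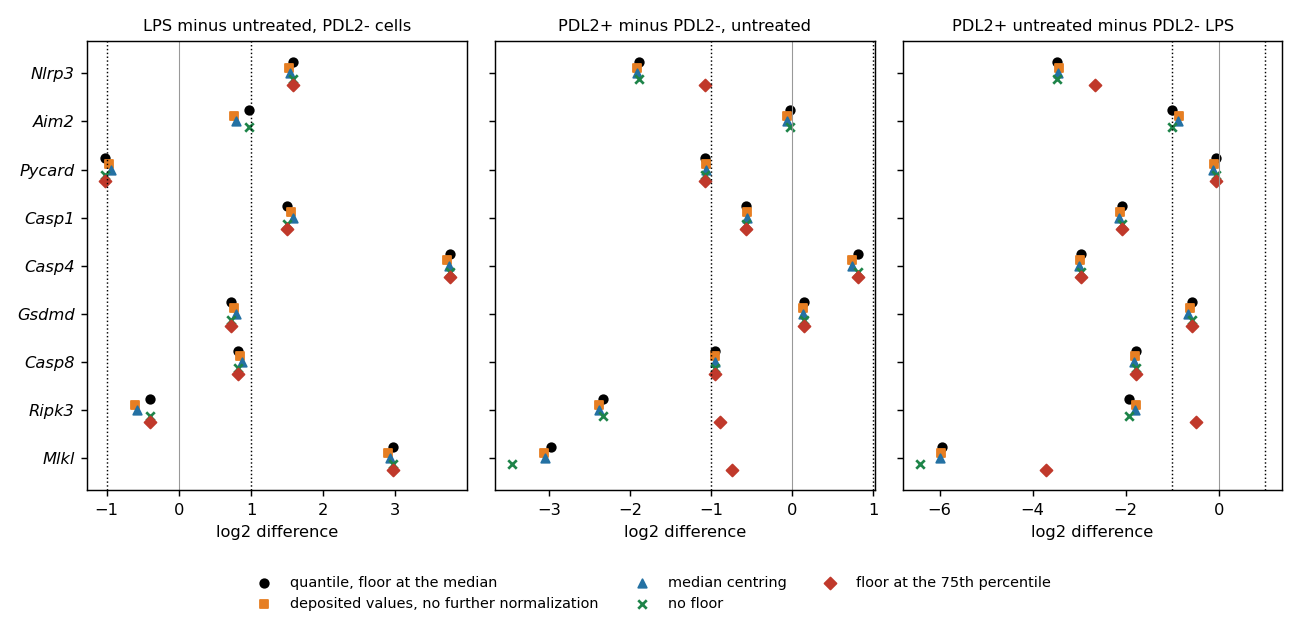
Log2 difference (horizontal axis) of each of the 9 genes under the settings named in the key, in the 3 comparisons, with dotted lines at 2-fold. No gene crosses 0, although a change of floor alone could not bring that about. The points that move most are Mlkl, Ripk3 and Nlrp3 with the floor at the 75th percentile. In the comparisons with PDL2-positive cells these points are bounds. Aim2 has no point there because it was below that floor.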

How the data were processed

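Total RNA of sorted cells was labelled with biotin, per the labels' protocols, and hybridized to Affymetrix-type probe sets. The deposited values are log2 signals by the authors, 1 per probe set and array; the scale is read from their range (3.19 to 14.83), while the steps by which the authors summarized probes, normalized and corrected background were not given in the sources used here. Precision is limited by the number of arrays (3, with 1 per group).

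Without the 13 control probe sets, the other 38533 were quantile-normalized, because a quartile differed between arrays by 0.22, more than the 0.1 allowed. Of these, 33974 named 1 gene, 449 named several and were used for none, and 4110 were unnamed. Symbols were updated through RefSeq gene numbers. A gene is read from its brightest probe set. Among the probe sets, 18.2% held a single identical value on all 3 arrays, none of them a probe set of the genes described.

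Pathway genes named are up to 4 per list with the largest difference past 2-fold in each of the first 2 comparisons, with Il18, Ninj1, Tradd, Fadd and Casp12 named for their role and after their values were seen. Like profiles are the 2 nearest genes by Euclidean distance after centring. The genes, lists and motifs were chosen with earlier results of these data known. The steps were run on simulated data with less noise than the technical SD after LPS. Changes were placed only in genes with mean signals well above the floor, so the simulation does not check calls near the floor. Alternatives were other normalizations, floors, probe set choices and fold limits. Python 3.11.15, pandas 2.3.3 and numpy 2.4.6 were used.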

Additional observations from a re-analysis of the deposited data

How the results depend on the processing

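Each of the 9 genes kept the sign of its difference in all 3 comparisons under every alternative that gave it a value. These were the deposited values, median centring, no floor, the floor at the 75th percentile and averaged probe sets. Only the deposited values and median centring could have reversed a sign. Moving a floor shared by both arrays cannot reverse one, and averaging left each gene with its single probe set above the floor. The count of genes higher after LPS was 7 at 1.5-fold and 2 at 3-fold, where 15.1% and 5.28% of all genes were, against 4 at 2-fold. The count lower after LPS was 0 with the deposited values, with median centring and at 3-fold, where 16.4%, 15.7% and 5.87% of all genes were, against 1. In PDL2-positive against PDL2-negative cells, 1 gene was higher and 5 were lower at 1.5-fold, where 17.7% and 20.4% of all genes were, against 0 and 4, and 2 were lower with the floor at the 75th percentile, where 14.0% were. With that floor the differences of Mlkl, Ripk3 and Nlrp3 in that comparison were -0.75, -0.89 and -1.07 or lower. Against LPS they were -3.71, -0.49 and -2.66 or lower. All of these are bounds, since that floor lies above the signals of the 3 genes in PDL2-positive cells. With no floor Mlkl was at -3.46 and -6.42. From the second brightest probe set, Casp9 was at 0.45 after LPS, opposite in sign to its brightest; the cause was not tested. No gene described had a second probe set above the floor, so that alternative gave none of them a value. The median over all genes after LPS moved from 0.02 to -0.09 with the deposited values. Leaving out a replicate was not possible with 1 array per group. No paired analysis was possible because each group has 1 array.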
